A study of Rattus norvegicus with 18 samples.

Results

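The activator protein 1 (AP-1) transcription factors were followed through the dorsal hippocampus of 18 adult male Sprague-Dawley rats. The members were taken by gene symbol from the deposited read counts and were 9 genes of 38445 in the table, namely Fos, Fosb, Fosl1 and Fosl2 of the Fos family, Jun, Junb and Jund of the Jun family, and the related genes Atf3 and Batf3. The members were selected on their TMM CPM by treatment in these same rats, so their differences between groups are given below as descriptions and support no statement about treatment. All 18 animals were wild type and fed Lieber-DeCarli liquid diet, which they first had without ethanol, and both ethanol-fed groups were then brought up to the full ethanol content step by step. By the labels the treatment diets then ran for 15 or 16 days. The control group (6 rats) had diet without ethanol, the ethanol group (6 rats) had diet with 9% v/v ethanol and was taken while still on it, and the withdrawal group (6 rats) had the ethanol diet followed by 24 h without ethanol.

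AP-1 is a dimer of basic leucine zipper proteins that binds the DNA letters TGANTCA. Jun proteins pair with each other or with a Fos protein, whereas Fos proteins need a partner of another family to bind DNA. In neurons Fos, Fosb and Junb are immediate-early genes, which are transcribed within minutes of synaptic activity or growth-factor signals without new protein synthesis, while Jund and Jun are present in resting cells. Atf3 is induced by cellular stress and injury, and Batf3 is best known from immune cells. Seizure and alcohol withdrawal are both classical settings in which the Fos genes have been used as activity markers in the brain.

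The libraries held 30873228 to 42679748 counted reads per rat (median 36302755). Of the 9 members, 8 had more than 0.5 CPM (read counts scaled to library size, with edgeR's TMM method) in at least 1 rat and entered the fit of 17853 genes. Batf3 did not. Fosl1 entered through withdrawal rats 1 and 6 alone, so it was tested only because it was high there. A gene was called differentially expressed (DE) at a Benjamini-Hochberg q below 0.1 by limma-voom with 3 surrogate variables. The sequencing index sets separated the groups, since all control rats carried one set, all ethanol rats and withdrawal rats 1 and 2 a second, and withdrawal rats 3 to 6 another. Control against either other group therefore cannot be told apart from index set. The dentate granule neuron markers (Prox1, Dsp, C1ql2 and Pdzd2) were present in all rats, with a summed level of 216.5 to 258.5 CPM (median 253.9) in control, 205.2 to 241.4 CPM (235.6) in ethanol and 140.5 to 269.6 CPM (220.3) in withdrawal rats. Of these 4, Prox1 was DE and lower in withdrawal against control (log2 fold change -0.26 ± 0.08, q = 0.0968), and 3 had an unadjusted p below 0.05. The dissections differed in neighbouring tissue. The summed level of 7 choroid plexus markers ran from 1085 to 2264 CPM in control, 1441 to 5332 CPM in ethanol and 29.1 to 5342 CPM in withdrawal rats, and that of 6 thalamus markers from 202.6 to 623 CPM, 163.5 to 1241 CPM and 161.5 to 529.7 CPM. All 4 tested red blood cell genes were DE and lower in both ethanol and withdrawal than in control rats, with a summed level of 126.6 to 225 CPM in control, 37.0 to 96.2 CPM in ethanol and 41.6 to 150.6 CPM in withdrawal rats, and 3 of 6 endothelial markers were DE and higher in withdrawal rats against controls, with a summed level of 195.1 to 238.6 CPM in control, 208.5 to 249.6 CPM in ethanol and 210.7 to 295.8 CPM in withdrawal rats. Of 3 oligodendrocyte precursor markers 1 was DE and higher in ethanol (Olig1) and 1 in withdrawal (Pdgfra) against control, with a summed level of 224.6 to 254.5 CPM in control, 255 to 307.5 CPM in ethanol and 237.1 to 276.7 CPM in withdrawal rats, so that the control and ethanol ranges did not overlap. Of 6 astrocyte markers 2 were DE and higher (Gfap and Sox9) and 2 lower (Aldh1l1 and Gja1) in withdrawal against control, with a summed level of 2711 to 3045 CPM in control, 2308 to 3083 CPM in ethanol and 2265 to 3757 CPM in withdrawal rats. Of 5 tested mural and meningeal markers 1 was DE and higher in that comparison (Pdgfrb), with a summed level of 129.8 to 157.6 CPM, 126 to 209.6 CPM and 110.5 to 560.2 CPM, the last in withdrawal rat 5. Of these markers Col1a2 was at 0 in all rats, and the part of these cells in the AP-1 values was not tested. In whole tissue, fewer cells of a type and less RNA per cell cannot be told apart.

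Promoter sequence was at hand in RefSeq (assembly GRCr8) for 6 of the 9 members, Fosb, Fosl1, Fosl2, Junb, Jund and Batf3. The 250 bases before the start of Fosl1, Junb and Jund are shown because Fosl1 was the member that differed most between the groups, Junb the one whose rat-to-rat swings stayed closest to those of other activity genes, and Jund the member with the highest mean level per length in control rats. Each is written 5′ to 3′ on the gene's strand, and capitals mark the letters TGACG, TGACGTCA (the cAMP response element, CRE, which contains TGACG) or GCGTGGGCG (the EGR site), on either strand.
Fosl1, chr1:212183635-212183884, plus strand: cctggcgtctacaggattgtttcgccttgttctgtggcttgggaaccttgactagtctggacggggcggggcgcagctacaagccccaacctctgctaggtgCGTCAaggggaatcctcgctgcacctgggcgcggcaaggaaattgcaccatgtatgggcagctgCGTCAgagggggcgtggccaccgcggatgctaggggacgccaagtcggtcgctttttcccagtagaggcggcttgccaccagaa
Junb, chr19:40080876-40081125, plus strand: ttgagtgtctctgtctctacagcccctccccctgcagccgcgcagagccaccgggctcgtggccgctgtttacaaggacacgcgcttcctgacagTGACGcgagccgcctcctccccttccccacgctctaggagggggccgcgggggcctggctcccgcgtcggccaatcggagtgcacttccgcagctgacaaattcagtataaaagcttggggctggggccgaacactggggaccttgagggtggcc
Jund, chr16:18769772-18770021, minus strand: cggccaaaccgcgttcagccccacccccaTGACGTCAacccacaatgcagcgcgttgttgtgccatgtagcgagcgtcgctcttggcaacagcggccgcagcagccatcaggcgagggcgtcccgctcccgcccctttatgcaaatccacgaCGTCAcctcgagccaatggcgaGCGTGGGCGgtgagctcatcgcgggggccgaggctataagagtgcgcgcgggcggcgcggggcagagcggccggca
The Fosb window lay wholly inside the span that RefSeq gives the gene and may not be its promoter, so it was set aside. Jund alone among the other 5 held a full CRE, whose first base lay at -221 from the start, and it also held an EGR site at -76. Across 33469 rat promoters of the same length, 1.59% held a CRE, 0.478% an EGR site and 18.2% the letters TGACG. Fosl1 held TGACG at -148 and -84, and Junb at -155. The AP-1 site TGANTCA, present in 6.34% of promoters, was found in none of the 5, and neither was the CArG box, present in 1.5%. Batf3 held the letters TTCNNNGAA (a STAT site, present in 7.67%) at -228. A match of letters is a description of these windows and not a site shown to be bound.

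Per length of transcript the Jun family made up most of the AP-1 level. In CPM, which is not divided by length, the mean of Jun lay above that of Jund in each group. Dividing CPM by the exon length in the files (CPM per kilobase), control rats held 34.1 ± 1.37 (SD, n = 6) of Jund, 29.1 ± 2.27 of Jun and 14.5 ± 2.98 of Junb. Next came Fos at 5.68 ± 0.675 and Fosl2 at 4.54 ± 0.926, then Fosb at 1.34 ± 0.327, Atf3 at 0.323 ± 0.115, Batf3 at 0.0471 ± 0.0201 and Fosl1 at 0.0340 ± 0.0275. In this order the ranges of Jund and Jun overlapped, as did those of Fos and Fosl2 and those of Batf3 and Fosl1, while each other gene lay above the next in all 6 control rats without overlap. Fosl2's place rests on an unusual gene model of 29 exon pieces with a median of 12 bases, 976 bases in all.

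The Jun family made up 84.9% to 87.7% of the summed AP-1 level per length in control rats, 68.5% to 89.3% in ethanol rats and 75.0% to 84.6% in withdrawal rats. Fos family genes made up 11.9% to 14.8%, 10.1% to 30.5% and 14.7% to 23.4%. The sum over all 9 genes was 83.4 to 96.1 CPM per kilobase in control rats. It reached 178.2 in ethanol rat 5 and 172.2 in withdrawal rat 1. Those 2 rats were singled out after their values were seen. They reached about the same sum by different genes, since Fos alone was 24.0% of the sum in ethanol rat 5 and 9.74% in withdrawal rat 1.

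**Figure D1:**
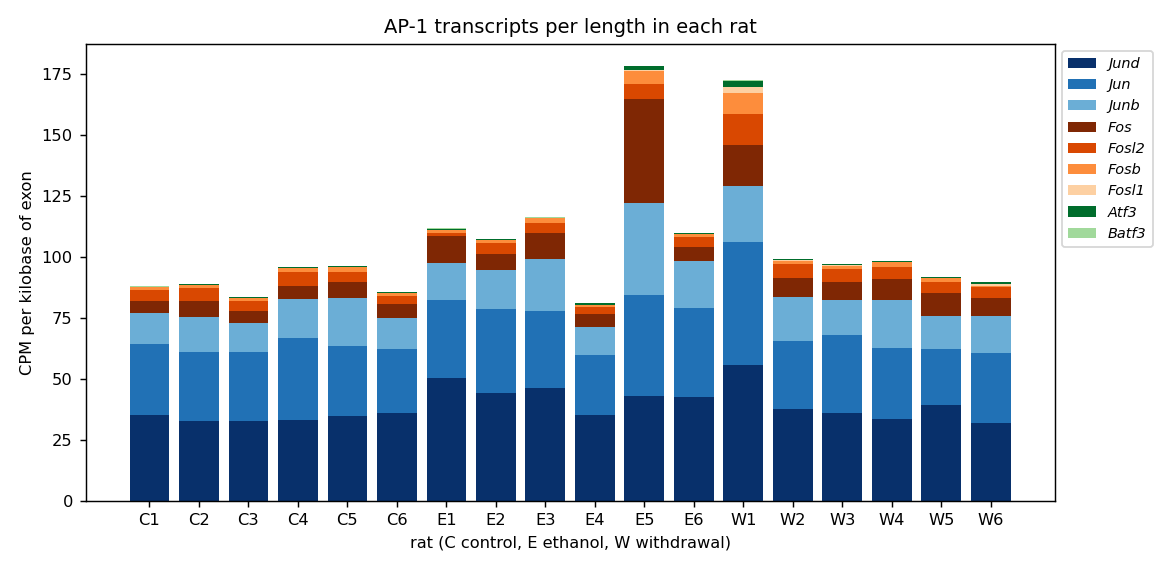
Summed level of the 9 AP-1 genes in each rat, in CPM per kilobase of exon (vertical axis), stacked by gene, for 6 control (C), 6 ethanol (E) and 6 withdrawal (W) rats. Blue Jun family segments make up most of every bar, and the bars of E5 (178.2) and W1 (172.2) stand far above the control range of 83.4 to 96.1.

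Fos, the founding immediate-early member (chromosome 6: 109300433 to 109303299, plus strand, Rnor_6.0), was lowest in control rats. Its TMM CPM had a lowest value of 7.99, a median of 8.75 and a highest of 10.3 in control, 8.57, 13.7 and 68.0 in ethanol, and 11.4, 13.0 and 26.7 in withdrawal rats. All 6 withdrawal rats lay above all control rats, as did 4 of 6 ethanol rats, and ethanol and withdrawal rats overlapped. Fos was the single tested member (1 of 8) whose control and withdrawal ranges were apart, against 1.06% of all genes tested. Ethanol rat 5, at 68.0 CPM, carried 6.48 times the median of the other 5 ethanol rats, and withdrawal rat 1, at 26.7 CPM, 2.17 times the median of its group. The fitted log2 fold change was 1.12 ± 0.44 (SE) for ethanol against control, 0.59 ± 0.43 for withdrawal against control and -0.53 ± 0.41 for withdrawal against ethanol, and q was 0.298, 0.463 and 0.548. With ethanol rat 5 and withdrawal rat 1 left out, the first became 0.33 ± 0.18 and the second 0.43 ± 0.16, and the third turned sign to 0.10 ± 0.18.

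Fosb, whose splice forms include the long-lived ΔFosB protein that accumulates under chronic drug exposure, was level across the groups apart from those same 2 animals. The counts do not separate its splice forms. Its CPM had a lowest value of 3.34, a median of 4.21 and a highest of 6.07 in control, 3.06, 4.12 and 18.4 in ethanol, and 2.62, 4.83 and 27.5 in withdrawal rats. The 16 other rats lay between 2.62 and 6.51 CPM. For Fosb the log2 fold change of withdrawal against control was 0.41 ± 0.48 with all rats (q = 0.673) and -0.08 ± 0.18 without the 2, and for ethanol against control 0.75 ± 0.49 (q = 0.564) and 0.17 ± 0.20. Per length, Fosb stood at 0.504 of the Fos level in withdrawal rat 1 and at 0.132 in ethanol rat 5, and the other 17 rats ran from 0.112 to 0.292. Withdrawal rat 1 was thus the rat in which Fosb was highest relative to Fos. A second gene model, LOC103691049 on the opposite strand, shares exon bases with Fosb, and reads of the pair cannot be told apart unless strand was counted.

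Fosl1 (Fra-1, a Fos protein that lacks a transactivation domain and is typical of injured or remodelling tissue) was almost silent in control and ethanol rats. Its read counts in control rats 1 to 6 were 1, 3, 1, 1, 5 and 1, in ethanol rats 3, 1, 3, 2, 5 and 2, and in withdrawal rats 120, 7, 15, 4, 7 and 48. In CPM the withdrawal values were 3.91, 0.165, 0.369, 0.112, 0.188 and 1.16, against a control range of 0.0253 to 0.137 and an ethanol range of 0.0270 to 0.142. Rats 1 and 6 were far above the others, and 5 of 6 withdrawal rats lay above every control rat. The fit gave a log2 fold change of 3.19 ± 0.76 for withdrawal against control (q = 0.0409) and 2.84 ± 0.78 for withdrawal against ethanol (q = 0.0890), and 0.35 ± 0.96 for ethanol against control (q = 0.921). Fosl1 was the single member called by limma-voom in each withdrawal comparison (1 of 8), where 5.41% and 2.72% of all tested genes were called. As it entered the fit through the group in which it was high, these q values are a description. With no filter on low counts q was 0.0482 and 0.143. DESeq2 gave Fosl1 no adjusted p and called Atf3, 1 of 7 members with an adjusted p, in withdrawal against control, against 9.86% of all genes with one.

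On summed counts, Fosl1 was 15.3 times the control level in withdrawal rats (95% exact interval 8.59 to 30.2, counting error only). Without withdrawal rat 1 the ratio was 7.14 (3.87 to 14.4), and without rats 1 and 6 it was 3.69 (1.86 to 7.84). In ethanol rats it was 1.31 (0.582 to 3.04). The call against control was lost without withdrawal rat 6 (q = 0.157), without surrogate variables (q = 0.241, and 0.104 by edgeR) and on the 2 groups alone (q = 0.327). With more than 0.5 CPM required in at least 6 rats, Fosl1 was not tested. Without withdrawal rat 1 the log2 fold change was 2.51 (q = 0.0431). The call against ethanol was lost for 10 of the 18 rats left out in turn (control rats 1, 2, 3, 4 and 6, ethanol rats 2, 3, 4 and 6, and withdrawal rat 6, with q up to 0.378). It was also lost by limma-voom without surrogate variables (q = 0.157, but 0.0490 by edgeR and 0.0840 by limma-voom when ethanol rat 5 and withdrawal rat 1 were left out too), with 2 of them (q = 0.115), with the replicate number as a block (q = 0.152), on the 2 groups alone (q = 0.315) and within the second index set (q = 0.770). For choroid plexus, withdrawal rat 6 had the highest sum of all 18 rats (5342 CPM) and withdrawal rat 1 the 15th (1192 CPM), while ethanol rat 1 had 5332 CPM with 3 Fosl1 reads. For endothelial markers, withdrawal rat 1 was highest (295.8 CPM) and withdrawal rat 6 was at 256 CPM, while withdrawal rat 5 had 270.4 CPM with 7 Fosl1 reads. The part of these tissues in Fosl1 was not tested.

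Fosl2 (Fra-2, a relative of Fosl1) had a lowest CPM of 3.26, a median of 4.24 and a highest of 5.87 in control, 1.28, 3.69 and 5.61 in ethanol, and 4.38, 5.19 and 12.4 in withdrawal rats. Withdrawal rat 1 lay above all control rats and the other 5 did not. The log2 fold change was 0.38 ± 0.17 for withdrawal against control (q = 0.237, and 0.59 with q = 0.0883 without withdrawal rat 3) and 0.03 ± 0.20 for ethanol against control (q = 0.974), and the latter was -0.40 ± 0.31 without surrogate variables. Fosl2 in withdrawal against control was 0.18 ± 0.12 (q = 0.457) without withdrawal rat 1 and 0.21 ± 0.12 (q = 0.36) without ethanol rat 5 and withdrawal rat 1. Its lowest value came from ethanol rat 1, the rat with the highest thalamus marker sum (1241 CPM), and the part of that tissue in the value was not tested.

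**Figure D2:**
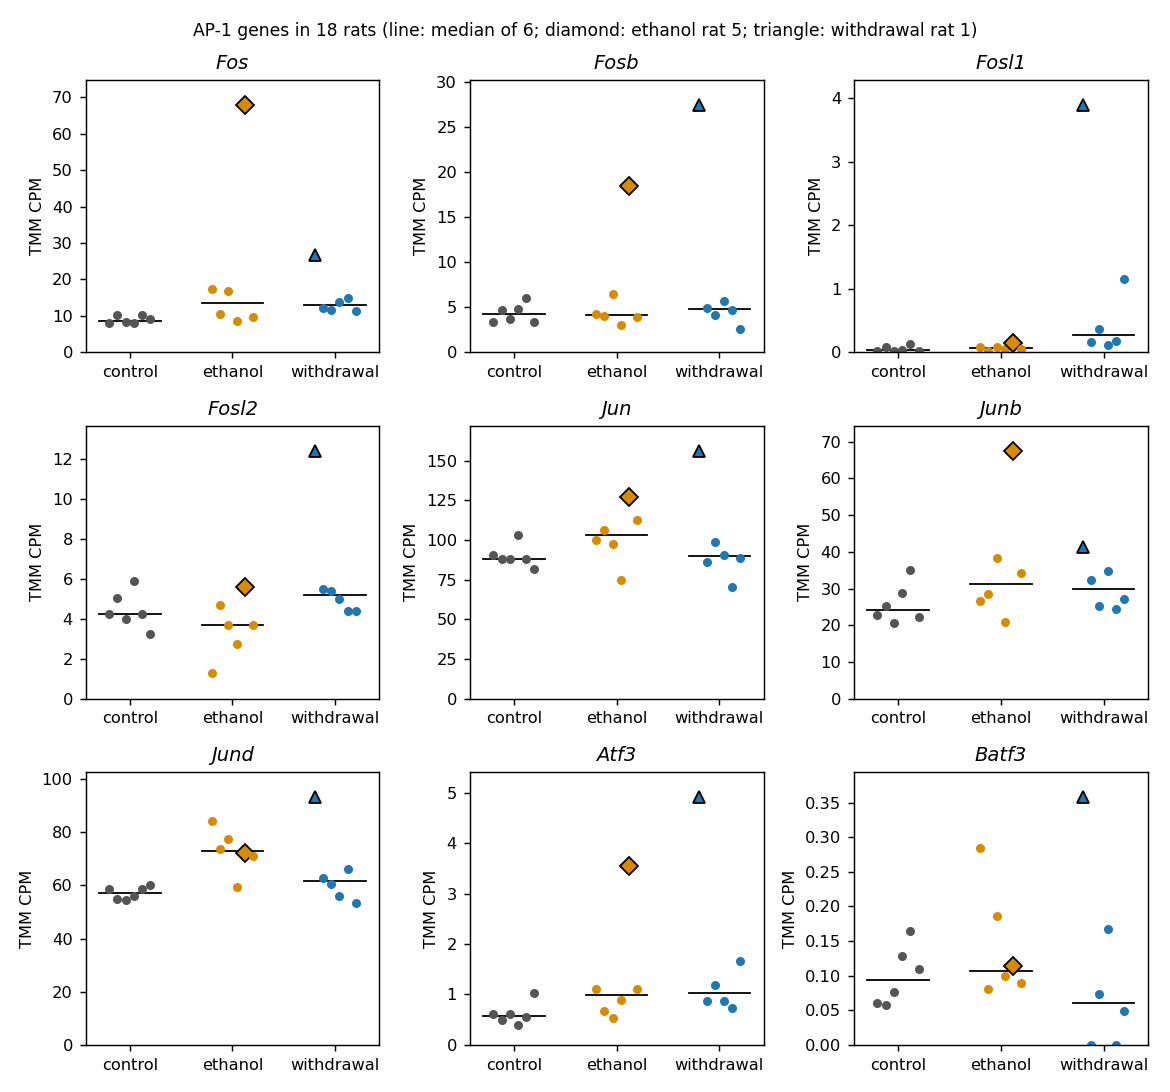
TMM CPM (vertical axis, linear, from 0) of each AP-1 gene in 6 control, 6 ethanol and 6 withdrawal rats, with each point 1 rat and the line the group median; the diamond is ethanol rat 5 and the triangle withdrawal rat 1. The triangle is the highest point of 7 of the 9 genes and the diamond of the other 2, Fos and Junb.

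Jun, the main transactivating partner of the dimer and the substrate of the JNK kinases, overlapped between the groups. Its CPM had a lowest value of 81.9, a median of 88.1 and a highest of 103.0 in control, 74.9, 103.3 and 127.1 in ethanol, and 70.4, 89.8 and 156.3 in withdrawal rats. Ethanol rat 4 and withdrawal rat 5 lay below all control rats, and 3 ethanol rats and withdrawal rat 1 above them. The coefficient of variation was 7.82% in control, 16.9% in ethanol and 30.2% in withdrawal rats. Jun had a log2 fold change of 0.29 ± 0.13 for ethanol against control (q = 0.354), 0.12 ± 0.12 for withdrawal against control (q = 0.612) and -0.17 ± 0.13 for withdrawal against ethanol (q = 0.547). Without withdrawal rat 1, Jun in withdrawal against control turned sign to -0.03 ± 0.08.

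Junb, an activity-induced Jun protein that is a weaker activator than Jun, had a lowest CPM of 20.7, a median of 24.0 and a highest of 34.9 in control, 20.9, 31.3 and 67.5 in ethanol, and 24.4, 29.8 and 41.2 in withdrawal rats. Ethanol rat 5 held the top value, 2.38 times the median of the other ethanol rats, and 2 ethanol rats and 1 withdrawal rat lay above every control rat. The log2 fold change was 0.61 ± 0.18 for ethanol against control (q = 0.167) and 0.35 ± 0.14 without ethanol rat 5 and withdrawal rat 1, and it was 0.23 ± 0.18 for withdrawal against control (q = 0.494). The latter was 0.09 ± 0.15 without withdrawal rat 1 and 0.14 ± 0.12 without both rats.

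Jund, the most abundant member per length and one whose transcript is steady in most tissues, was the member with the smallest spread among controls (coefficient of variation 4.04%). Its CPM had a lowest value of 54.7, a median of 57.3 and a highest of 60.2 in control rats. The ethanol rats had 84.2, 73.9, 77.6, 59.4, 72.4 and 71.2, and 5 of 6 lay above every control rat, with ethanol rat 4 inside the control range. The withdrawal rats had a lowest value of 53.5, a median of 61.8 and a highest of 93.3, which was withdrawal rat 1. The log2 fold change was 0.36 ± 0.10 for ethanol against control (q = 0.139), 0.15 ± 0.09 for withdrawal against control (q = 0.379) and -0.21 ± 0.10 for withdrawal against ethanol (q = 0.320). Jund in withdrawal against control was 0.06 ± 0.07 without withdrawal rat 1 and 0.05 ± 0.07 without ethanol rat 5 and withdrawal rat 1. Without withdrawal rat 6, withdrawal against ethanol was -0.09 ± 0.12. No member was called between ethanol and control rats by limma-voom (0 of 8, against 0.493% of all tested genes), and 4 of 8 had an unadjusted p below 0.05, against 12.5% of all tested genes. edgeR's quasi-likelihood test called none of them either, and DESeq2 called 3 of the 7 with an adjusted p, Fos, Junb and Jund, against 3% of all genes with one. Without ethanol rat 5 and withdrawal rat 1, Jund was called between ethanol and control (0.32 ± 0.08, q = 0.0706) and between withdrawal and ethanol (-0.27 ± 0.08, q = 0.0746), where 3.08% and 10.4% of all genes tested were called. In the latter fit all 6 tested choroid plexus markers were called lower in withdrawal rats too, and their part in the Jund value was not tested. It was called between ethanol and control also without ethanol rat 4 (q = 0.0912) and on the 2 groups alone (q = 0.0973), and without withdrawal rat 1 it was called in both comparisons (q = 0.0646 and 0.0873) and Junb between ethanol and control (q = 0.0992). Ethanol rat 5, which stood apart for Fos, held an ordinary Jund level for its group.

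Atf3, a stress- and injury-induced member, had a lowest CPM of 0.385, a median of 0.579 and a highest of 1.02 in control, 0.527, 0.995 and 3.54 in ethanol, and 0.726, 1.02 and 4.91 in withdrawal rats. The highest 3 were withdrawal rat 1, ethanol rat 5 and, at 1.67, withdrawal rat 6. The log2 fold change was 1.25 ± 0.49 for withdrawal against control (q = 0.166) and 0.83 ± 0.22 (q = 0.0699, against 4.32% of all genes called) without ethanol rat 5 and withdrawal rat 1. Atf3 was also called in that comparison by DESeq2 (1.38, q = 0.0437), without ethanol rat 5 alone (1.13, q = 0.0901) and with the replicate number as a block (1.39, q = 0.0708), and not by edgeR (q = 0.131). For Atf3, ethanol against control went from 0.89 ± 0.54 (q = 0.523) to 0.18 ± 0.28. Its lowest value rests on 12 reads. Batf3 was counted at 21 reads over the 6 control rats, 30 over the ethanol rats and 22 over the withdrawal rats, 11 of which were in withdrawal rat 1. Its ratio to control was 1.41 (95% exact interval 0.778 to 2.58) in ethanol and 0.959 (0.503 to 1.83) in withdrawal rats, and 0.554 (0.241 to 1.2) in withdrawal rats without rat 1, so no difference was detectable at this depth. The model GeneID 102554575 on the opposite strand shares exon bases with Batf3.

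**Figure D3:**
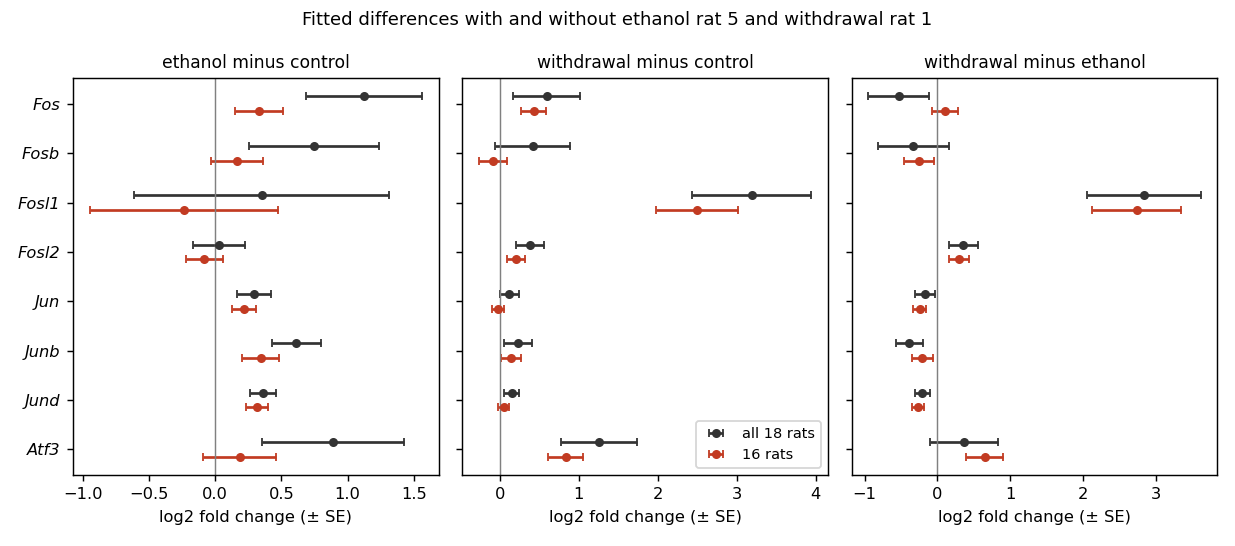
Fitted log2 fold change (horizontal axis, ± SE) of the 8 tested AP-1 genes in 3 comparisons, with all 18 rats (black) and with the 16 left when ethanol rat 5 and withdrawal rat 1 are taken out (red). Fos falls from 1.12 to 0.33 in ethanol against control, while Fosl1 stays far above 0 in both withdrawal comparisons.

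Ethanol rat 5 and withdrawal rat 1 were set beside a wider list of 25 other immediate-early genes, all of which were tested. Ethanol rat 5 was the highest of the 6 ethanol rats for 7 of 8 AP-1 genes and 22 of 25 other immediate-early genes, against 24.6% of all genes tested. It exceeded 2 times the median of the other ethanol rats for 5 of 8 and 12 of 25, against 0.907% of all genes. Withdrawal rat 1 was the highest of its 6 for 8 of 8 and 15 of 25, against 18.7% of all genes, and exceeded 2 times the median for 5 of 8 and 9 of 25, against 2.02%. Because both rats were singled out for their AP-1 values, these shares carry no test.

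The 2 rats shared some high genes and differed in others. Ethanol rat 5 led in the rapid early genes, with Egr1 at 117.0 CPM (control median 40.6), Nr4a1 at 117.5 CPM (37.2), Btg2 at 71.7 CPM (18.0), Dusp1 at 91.6 CPM (26.6) and Ier2 at 29.6 CPM (7.02). Of these, Ier2 (17.5 CPM, 2.30 times the median of the other 5 withdrawal rats) and Dusp1 (54.0 CPM, 1.57 times) were raised in withdrawal rat 1 as well. Withdrawal rat 1 held near-group levels of Egr1 (60.3 CPM, 1.09 times), Nr4a1 (51.6 CPM, 1.21 times) and Btg2 (20.1 CPM, 1.07 times). It led in the synaptic gene Arc at 409.2 CPM (4.55 times), in Egr3 at 336.7 CPM (3.59 times), in the stress genes Gadd45b at 51.5 CPM (3.69 times) and Csrnp1 at 37.1 CPM (3.03 times), and in the small Maf gene Maff at 12.7 CPM (3.69 times). Ethanol rat 5 in turn held 2.33 times the median of the other ethanol rats for Arc, 2.06 times for Egr3, 2.37 times for Csrnp1 and 1.44 times for Gadd45b. The genes named for the 2 rats were chosen after their values were seen. The neuron marker sum was the highest of 18 rats in ethanol rat 5 (5490 CPM) and the 15th in withdrawal rat 1 (4367 CPM). The oligodendrocyte marker sum was low in both, the 18th and the 16th of 18 rats. The part of tissue makeup in these levels was not tested.

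**Figure D4:**
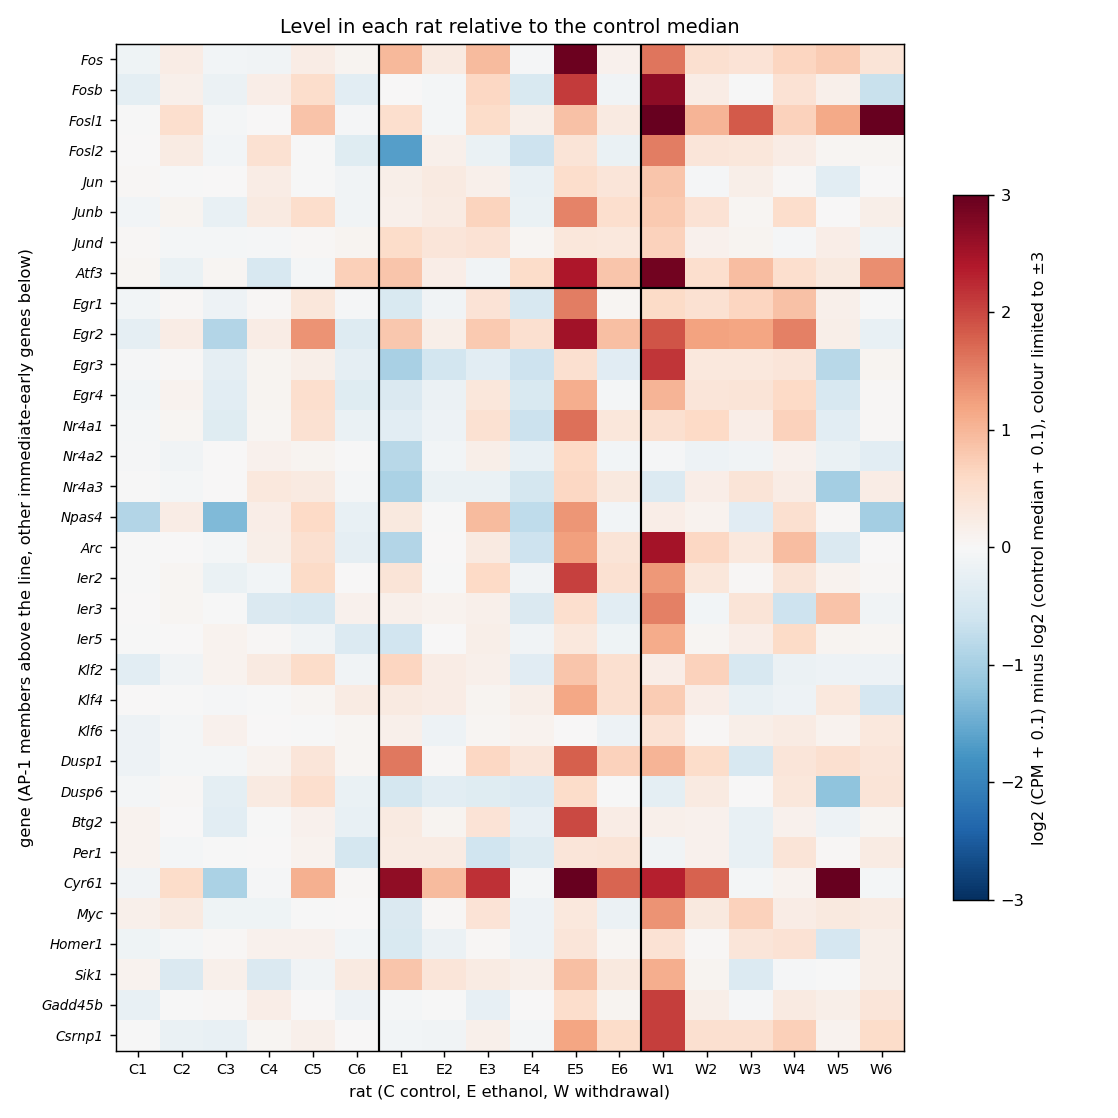
Level of the 8 tested AP-1 genes (above the line) and 25 other immediate-early genes (below) in each rat, as log2 (CPM + 0.1) minus that of the control median, with colour limited to ±3. The columns E5 and W1 are red over most AP-1 genes, both are red for Ier2, Dusp1, Arc and Csrnp1, E5 more than W1 for Egr1, Nr4a1 and Btg2, and W1 more than E5 for Egr3 and Gadd45b.

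Whether AP-1 genes rose and fell together from rat to rat was asked on deviations from each group's mean log2 CPM. The same rats' values chose the members, and ethanol rat 5 and withdrawal rat 1 carry much of both the group differences and the deviations, so the p values below describe these rats and are no independent test. Over 18 rats all 28 pairs of the 8 tested genes had a positive Pearson's r. Of these, 8 had a Benjamini-Hochberg adjusted p below 0.05 in a two-sided permutation test with 100000 shuffles within groups, and 3 did by Spearman's rho. The 8 include 2 pairs with Fosl1, whose farthest deviations come from the 2 rats through which it entered the fit, so these 2 are given without p. Fos and Fosb had r = 0.84 and rho = 0.80 (permutation p = 7e-05, adjusted p = 0.00098; for rho p = 0.00044, adjusted p = 0.0104). Fosb and Junb had r = 0.81 and rho = 0.75 (permutation p = 5e-05, adjusted p = 0.00098; for rho p = 0.00074, adjusted p = 0.0104). Both pairs still moved together when the 2 rats farthest from the median, ethanol rat 5 and withdrawal rat 1, were left out, with r = 0.65 for Fos and Fosb and r = 0.73 for Fosb and Junb.

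The other 6 pairs that passed by r no longer passed over the 16 rats without ethanol rat 5 and withdrawal rat 1. Fos and Junb had r = 0.80 (rho = 0.49, permutation p = 0.00428, adjusted p = 0.0266; for rho p = 0.0724, adjusted p = 0.225) and r = 0.47 without the 2 farthest. Fosl1 and Atf3 had r = 0.70 (rho = 0.53), and r = 0.47 without withdrawal rats 1 and 6, and Fos and Fosl1 had r = 0.45 (rho = 0.42) and r = 0.12 without ethanol rat 5 and withdrawal rat 1. Fosb and Jun had r = 0.76 (rho = 0.38, permutation p = 0.0104, adjusted p = 0.0364; for rho p = 0.144, adjusted p = 0.283) and r = 0.19 without those 2. Fosb and Fosl2 had r = 0.70 (rho = 0.59, permutation p = 0.00789, adjusted p = 0.0322; for rho p = 0.0137, adjusted p = 0.0768) and r = 0.26 without them. Fosl2 and Jun, which passed by rho alone, had rho = 0.74 (permutation p = 0.00222, adjusted p = 0.0207) and r = 0.69 (permutation p = 0.0183, adjusted p = 0.0568), r = 0.78 without its own farthest 2, ethanol rat 1 and withdrawal rat 1, and r = 0.36 without ethanol rat 5 and withdrawal rat 1. Jun and Junb had r = 0.65 (rho = 0.42, permutation p = 0.00308, adjusted p = 0.0266; for rho p = 0.107, adjusted p = 0.272), r = 0.54 without their farthest 2, ethanol rat 4 and withdrawal rat 1, and r = 0.50 without ethanol rat 5 and withdrawal rat 1. Recomputed over 16 rats without ethanol rat 5 and withdrawal rat 1, 3 of 28 pairs passed by r. Fos with Fosb (r = 0.62, rho = 0.65) and Fosb with Junb (r = 0.75, rho = 0.73) were positive, each with an adjusted permutation p of 0.0472. Fosb with Atf3 had the same adjusted permutation p and the opposite sign, r = -0.73 (rho = -0.70), where all 18 rats had given r = 0.64 (permutation p = 0.0302, adjusted p = 0.0687) and rho = 0.05 (permutation p = 0.852, adjusted p = 0.884). With all rats this pair thus did not pass, and the sign of its r rested on those 2 rats. Within single index sets, Fosb and Junb had r = 0.93 over the 6 control rats (exact permutation p = 0.0125, adjusted p = 0.0479 over 12 values; rho = 0.83, exact p = 0.0583, adjusted p = 0.175) and r = 0.84 over the 8 rats of the second set (exact permutation p = 0.00417, adjusted p = 0.0250; rho = 0.69, exact p = 0.0479, adjusted p = 0.175). Fos and Fosb had r = 0.57 in the first (exact permutation p = 0.222, adjusted p = 0.267; rho = 0.43, exact p = 0.419, adjusted p = 0.458) and r = 0.90 in the second (exact permutation p = 0.00208, adjusted p = 0.0250; rho = 0.83, exact p = 0.00903, adjusted p = 0.108). Fosb and Atf3 had r = -0.64 in the first and 0.85 in the second, and neither passed (exact permutation adjusted p = 0.217 and 0.127; rho = -0.83 and 0.69, exact adjusted p = 0.175 and 0.284). Fos and Junb had r = 0.50 and 0.88 in the 2 sets (exact permutation adjusted p = 0.341 and 0.0479). Fosl2 and Jun had r = 0.87 and 0.61 (exact permutation adjusted p = 0.113 and 0.217), and Fosl1 and Atf3 -0.29 and 0.77. These pairs were picked from the correlations over the same rats, which the adjustment over 12 values leaves out, so these p values are a description. The second set holds both ethanol rat 5 and withdrawal rat 1. The third set held 4 rats, too few for a value.

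**Figure D5:**
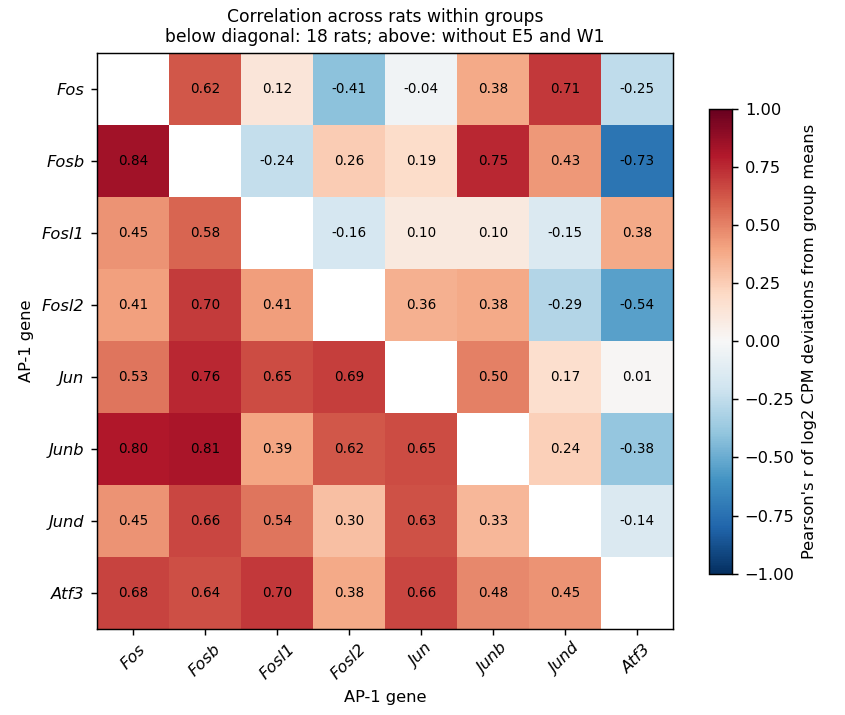
Pearson's r between AP-1 genes across rats, on log2 CPM deviations from group means, over 18 rats (below the diagonal) and over 16 rats without ethanol rat 5 and withdrawal rat 1 (above). All 28 values below the diagonal are positive, whereas Atf3 with Fosb is -0.73 above it.

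The genes whose rat-to-rat pattern was most like each member were sought among 15137 genes with a mean of at least 1 CPM, over 18 rats, as a description. Junb was closest to Nr4a1, an activity-induced nuclear receptor (r = 0.95, and 0.94 without ethanol rat 5 and withdrawal rat 1), then to Egr4 (0.92 and 0.84) and Ier2 (0.92 and 0.84). Fos was closest to Ier2 (0.93 and 0.62), Zfp36 (0.91 and 0.53) and Tbrg4 (0.90 and 0.70). Fosb was closest to Noct (0.91 and 0.71), Ier2 (0.90 and 0.72) and Sergef (0.90 and 0.75). Fos and Fosb were thus less close to these genes without the 2 rats, while Nr4a1 stayed close to Junb.

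For Fosl1 the closest genes were the tumour necrosis factor receptor Tnfrsf1a (r = 0.91, and 0.81 without the 2 rats), the cytokine signalling inhibitor Socs3 (0.90 and 0.76) and Sbno2 (0.88 and 0.68). Withdrawal rat 6, with 48 Fosl1 reads, stayed in when those 2 were left out, and r without withdrawal rats 1 and 6 was not computed. Tnfrsf1a ranged from 10.1 to 12.3 CPM in control and from 12.4 to 25.8 CPM in withdrawal rats, and was DE between them (log2 fold change 0.64 ± 0.12, q = 0.0199). Socs3 ranged from 1.04 to 1.49 CPM in control and from 1.53 to 11.8 CPM in withdrawal rats (1.47 ± 0.37, q = 0.0501). Sbno2 was not called (0.37 ± 0.12, q = 0.115). Tnfrsf1a and Socs3 both had withdrawal ranges above the control range. Fosl2 was closest to the serotonin receptor Htr4 (0.93 and 0.89), the neurotrophin receptor Ntrk3 (0.92 and 0.85) and Mnt (0.92 and 0.89). Jun was closest to Perp (0.92 and 0.81), Ubtf (0.91 and 0.78) and Ahdc1 (0.91 and 0.75), Jund to Blmh (0.90 and 0.71), Dgat1 (0.88 and 0.71) and Zfp787 (0.84 and 0.60), and Atf3 to Pcbp2 (0.90 and 0.65), Rnf128 (0.88 and 0.53) and Midn (0.88 and 0.48). Pcbp2 was DE in withdrawal against control (log2 fold change 0.15 ± 0.03, q = 0.0259) and against ethanol (0.14 ± 0.04, q = 0.0710). It ranged from 194 to 198.1 CPM in control and from 207.7 to 234.9 CPM in withdrawal rats.

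Genes around AP-1 that are not members were read from the same fit. Among 20 tested genes for other basic leucine zipper proteins, which can pair with AP-1 or compete for its sites, 4 were called higher and 0 lower in withdrawal against control, where 2.85% and 2.55% of all tested genes were. The median of their log2 values was 0.10, and that of all genes tested 0.00. Maff, a small Maf protein without a transactivation domain, rose from 1.25 ± 0.351 to 5.11 ± 3.98 CPM (SD, n = 6; log2 fold change 1.81 ± 0.41, q = 0.0355), with 5 of 6 withdrawal rats above all controls. Cebpd, an acute-phase factor, rose from 9.69 ± 1.84 to 14.3 ± 4.95 CPM (0.59 ± 0.15, q = 0.0504). Atf1, a CREB relative, rose by 0.16 ± 0.05 on the log2 scale (q = 0.0855) and the stress sensor Nfe2l1 by 0.10 ± 0.03 (q = 0.0640). With all rats and surrogate variables none of the 20 was called by limma-voom between ethanol and control rats or between withdrawal and ethanol rats, where 3 and 8 had an unadjusted p below 0.05. Without surrogate variables 3 were called higher in withdrawal against ethanol, Maff (q = 0.0875), Mafg (q = 0.0765) and Creb1 (q = 0.0684), the last 2 being named after their values were seen. Without ethanol rat 5 and withdrawal rat 1 the higher calls in withdrawal against control numbered 2, Maff (q = 0.0245) and Cebpd (q = 0.0508). In the same fit 5 were higher and 1 lower in withdrawal against ethanol, and 1 was higher in ethanol against control, Atf5 (0.46 ± 0.07, q = 0.00559), named after its values were seen. Of all genes 4.32%, 10.4% and 3.08% were called in these comparisons.

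Among 26 tested kinases and regulators upstream of AP-1, 0 were called higher and 3 lower in withdrawal against control, where 2.85% and 2.55% of all tested genes were. Map2k6, a kinase that activates p38, fell from 22.4 ± 2.03 to 18.3 ± 1.17 CPM (SD, n = 6; log2 fold change -0.28 ± 0.06, q = 0.0259), with 5 of 6 withdrawal rats below all controls. The CREB coactivator Crtc1 fell from 225.3 ± 16.1 to 198.1 ± 23.9 CPM (-0.17 ± 0.05, q = 0.0639). Against ethanol rats, where 1.23% of all tested genes were called higher and 1.49% lower, 2 were lower, Map2k6 (-0.29 ± 0.07, q = 0.0570) and Mapk3 (ERK1; -0.17 ± 0.05, q = 0.0787). The median over the list was 0.02 and 0.00 in these comparisons. Without ethanol rat 5 and withdrawal rat 1 the list gave 0 higher and 2 lower against control, and 3 higher and 3 lower against ethanol, where 4.32% and 10.4% of all genes were called. With all rats none was called between ethanol and control by limma-voom, where 4 had an unadjusted p below 0.05. Without those 2 rats 1 was, Map2k4, a kinase that activates JNK (-0.22 ± 0.06, q = 0.0877), named after its values were seen. Mapk7 and Map2k3 were listed at 0 in all rats.

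Among 28 tested genes often cited as AP-1 targets, 6 were called higher and 1 lower in withdrawal against control, where 2.85% and 2.55% of all tested genes were. The median of their log2 values was 0.22, and that of all genes tested 0.00. The largest rises were those of the chemokine Ccl2, from 0.137 ± 0.0859 to 1.33 ± 1.85 CPM (SD, n = 6; log2 fold change 2.69 ± 0.63, q = 0.0386), and of the cytokine Lif, from 0.256 ± 0.0775 to 1.22 ± 1.23 CPM (1.84 ± 0.36, q = 0.0218). Lif was higher in all 6 withdrawal rats than in any control rat and Ccl2 in 5 of 6, with withdrawal rat 1 highest for both at 3.68 and 4.98 CPM. Ccl2 passed the CPM filter through 3 withdrawal rats alone and Lif through all 6 withdrawal rats and 1 ethanol rat, so their q values are a description, as for Fosl1. The other 4 higher genes were Timp1, Mmp14, Spp1 and Ezr. The neuropeptide Nts fell from 42.5 ± 5.65 to 32.1 ± 10.3 CPM (-0.41 ± 0.13, q = 0.0917). Against ethanol rats, where 1.23% of all tested genes were called higher, 3 of 28 were, Ccl2 (2.47 ± 0.67, q = 0.0868), Lif (1.34 ± 0.37, q = 0.0912) and Mmp14, a membrane metalloproteinase (0.58 ± 0.14, q = 0.0648). Without ethanol rat 5 and withdrawal rat 1 the list gave 6 higher and 0 lower against control and 8 higher and 0 lower against ethanol, where 4.32% and 10.4% of all genes were called. None was called between ethanol and control rats, where 2 had an unadjusted p below 0.05 by limma-voom. Several listed targets are also made by astrocytes, endothelial cells or meningeal cells, whose marker values are given above and whose part in these calls was not tested.

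Of the 25 other immediate-early genes, 1 was called in any comparison with all rats. Of all tested genes 5.41% were called in withdrawal against control, 0.493% in ethanol against control and 2.72% in withdrawal against ethanol. Myc, a growth-associated transcription factor, rose from 3.81 ± 0.449 to 5.60 ± 2.07 CPM in withdrawal against control (SD, n = 6; log2 fold change 0.50 ± 0.13, q = 0.0547), and was not called without ethanol rat 5 and withdrawal rat 1 (q = 0.106), where Csrnp1, Ier5 and Egr1 were. In that fit Egr3 (0.42 ± 0.08, q = 0.00863), Klf6 (0.24 ± 0.07, q = 0.0663) and Csrnp1 (0.30 ± 0.10, q = 0.0827) were called higher in withdrawal against ethanol, and Egr3 lower in ethanol against control (-0.27 ± 0.07, q = 0.0951). These genes were named after their values were seen. The list median was 0.29 in withdrawal against control and 0.36 in ethanol against control, with 20 and 21 of 25 values above 0, and the all-gene median was 0.00 in both. These 2 comparisons share the control rats. None of the 99 genes of the 4 lists was called in withdrawal against control without surrogate variables (limma-voom), where 41 of all 17853 tested genes were. In that fit 23 of the 99 and 2153 of all genes had an unadjusted p below 0.05. Without surrogate variables edgeR's quasi-likelihood test called 1 of the 99 and 33 of all genes. The limma-voom calls in these lists in withdrawal against control thus appeared with surrogate variables, where 965 of all genes were called.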

How the data were processed

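RNA-seq libraries of dorsal hippocampus from 18 rats were analysed, 6 per group by the submitters' treatment labels. The authors aligned paired-end reads with STAR (2.5.2a) to Rnor 6.0 and, with featureCounts (1.5.0), made the raw counts per gene that were deposited, with the exon length of each gene (another column of the same files). Genes were named from RefSeq identifiers (29322 of 38445 matched). Genes above 0.5 CPM in at least 1 rat (17853) were kept. Counts were scaled by TMM in edgeR (4.0.16), sva (3.50.0) supplied 3 surrogate variables from log2 CPM (prior count 2), and limma-voom (3.58.1, R 4.3.3) was fitted over all groups with 3 contrasts and Benjamini-Hochberg adjustment, after the study's design. The fit was tested on simulated counts. Alternatives included DESeq2 (1.42.0). CPM per kilobase is CPM over exon length, and intervals on summed counts cover counting error only. The members and gene lists were chosen with earlier results of these data known. The genes named were the 9 members, the list genes with q below 0.1 (where over 4 passed, the 2 largest rises and falls), and the 3 genes most like each member. The lists held other basic leucine zipper genes, upstream kinases and regulators, AP-1 target genes, other immediate-early genes and markers of 11 cell types or tissues. Each rat is 1 animal, and no pair of rats within a group agreed within sampling noise. Correlations used Python (3.11.15). The values of 1 called list gene are not reported here.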

Additional observations from a re-analysis of the deposited data

Results flagged for a closer look

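Of 27 groups of 6 rats examined (9 genes in 3 groups), 12 had an end value that stood off from its neighbour by a larger share of the range than Dixon's 95% limit, where chance alone picks about 1 in 20 groups. The 12 are not independent, since 7 came from withdrawal rat 1 and 4 from ethanol rat 5. In withdrawal rat 1 they were Fos at 26.7 CPM, Fosb at 27.5 CPM, Fosl1 at 3.91 CPM, Fosl2 at 12.4 CPM, Jun at 156.3 CPM, Jund at 93.3 CPM and Atf3 at 4.91 CPM, each the highest of its 6 rats. In ethanol rat 5 they were Fos at 68.0 CPM, Fosb at 18.4 CPM, Junb at 67.5 CPM and Atf3 at 3.54 CPM. The last was Atf3 in control rat 6, at 1.02 CPM. Batf3, at 0 to 11 reads a rat, had none.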

How the results depend on the processing

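The log2 fold changes of the 8 tested members were recomputed under 11 alternatives with all rats, with each of 18 rats left out in turn, and in 3 ways added after the data were seen. Fosl1 has no value with more than 0.5 CPM in at least 6 rats, nor for ethanol against control on the 2 groups alone, as it did not pass those filters. Of 748 values for 24 member comparisons, 737 moved by less than 1 SD between rats, 11 moved by more, and no called one changed sign. Fos in ethanol against control ran from 0.36 (without ethanol rat 5) to 1.59 when 1 rat was left out, and in withdrawal against ethanol from -1.07 to 0.25. Without both ethanol rat 5 and withdrawal rat 1 it was 0.33 in ethanol against control, and 0.40 also without surrogate variables, where Fosl2 was -0.56 and Junb 0.18 in that comparison. Within the second index set (6 ethanol and 2 withdrawal rats, no surrogate variables), withdrawal against ethanol was 0.98 for Fosb, 1.27 for Fosl2, 0.19 for Jun, 0.13 for Junb and 0.077 for Jund. All 36 recomputed levels per length stayed within 1 SD. For the withdrawal means without withdrawal rat 1 this could not fail, since leaving out 1 of 6 rats cannot move a mean by 1 SD of those 6. Without that rat, Fos went from 9.49 to 8.04 CPM per kilobase and Fosl1 from 0.591 to 0.240. Correlated pairs numbered 8, 2 without withdrawal rat 1 and 3 without both rats, of which 2 were among the 8.

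Counts of DE genes also depended on the settings, and the cause was not tested. Withdrawal against control gave 965 genes, and 41 without surrogate variables, 594 with 2 of them, 33 by edgeR without them, 1624 by DESeq2, 486 with no filter, 18 without the 2 rats and surrogate variables, and 0 by limma-voom on the 2 groups alone (2082 at an unadjusted p below 0.05). Leaving out 1 rat gave 23 (without withdrawal rat 6) to 1911 genes. Ethanol against control gave 88 genes, and 50 without surrogate variables, 221 with 4, 473 by DESeq2, 9 with no filter, 55 on the 2 groups alone, 548 without the 2 rats and 434 without them and surrogate variables, and 0 (limma-voom, without control rat 4; 1989 at an unadjusted p below 0.05) to 258 with 1 rat left out. Withdrawal against ethanol gave 486, and 260 with 2 surrogate variables, 896 with 4, 1176 by DESeq2, 166 with no filter, 0 on the 2 groups alone (2439 unadjusted), 1859 without the 2 rats, 1383 without them and surrogate variables, 0 within the second index set (1067 unadjusted), and 0 (limma-voom, without ethanol rat 2; 2020 unadjusted) to 1800 with 1 rat left out.

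Of the 99 list genes, 15 were called in withdrawal against control, 0 in ethanol against control (18 at an unadjusted p below 0.05 by limma-voom) and 5 in withdrawal against ethanol. The first was 0 without surrogate variables, on the 2 groups alone and without the 2 rats and surrogate variables (23, 23 and 18 unadjusted), 1 by edgeR without them, 25 with 4, 23 by DESeq2, and 0 (without withdrawal rat 6; 33 unadjusted) to 24 with 1 rat left out. The second was 1 with 4 surrogate variables, by both edgeR fits, with more than 0.5 CPM in at least 6 rats and on the 2 groups alone, 2 by DESeq2, 3 without the 2 rats with or without surrogate variables, and 0 to 1 with 1 rat left out. The third was 1 with 2 surrogate variables, 10 with 4, 9 by edgeR without them, 14 by DESeq2, 3 with more than 0.5 CPM in at least 6 rats, 23 without the 2 rats, 15 without them and surrogate variables, and 0 with no filter (30 unadjusted), on the 2 groups alone (19) and within the second index set (18), with 0 (without ethanol rat 2; 24 unadjusted) to 19 with 1 rat left out.

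Replicate numbers name different animals, and deviations of same-numbered rats correlated between -0.325 and 0.383. The paper states that rats were pair fed, but the labels do not say which rats were matched. Whether the numbers mark such pairs cannot be told from these correlations. With the replicate number as a block, DE genes numbered 941 in withdrawal against control, 33 in ethanol against control and 1 in withdrawal against ethanol, and list genes 23, 1 and 0 (27 unadjusted by limma-voom). Depth limits Fosl1 and Batf3, which had 1 to 5 and 2 to 6 reads in each control rat.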
